A study of Mus musculus with 10 samples.

Results

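The genes described here are the nuclear-encoded genes of oxidative phosphorylation in mouse fetal oocytes. They were chosen by name among the protein-coding genes of the deposited TPM table: Nduf genes for complex I, Sdha to Sdhd for complex II, Uqcr genes for complex III, Cox4 to Cox8 genes for complex IV and Atp5 genes for complex V. The rule found 95 genes (94 symbols, since Atp5o has 2 identifiers) among 55536 genes in the table, and 90 of them had enough counts to be tested. The rule reads gene names only.

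RNA was sequenced from oocytes of E16.5 ovaries in 5 Taf4b-heterozygous and 5 Taf4b-deficient libraries, with C57BL/6 given as the strain. Parents of both groups carried the Oct4-EGFP transgene (B6;129S4-Pou5f1tm2Jae/J) on both alleles and were heterozygous for the Taf4b-deficiency mutation, so the comparison group is heterozygous and not wild type. Cells were sorted as live (propidium iodide excluded) and GFP+, the transgene marking germ cells, and no treatment was given. Whether each library stands for its own embryo is not stated in the labels, so the p-values weigh only library-to-library spread, which may be partly technical. The libraries carry 3 litter dates.

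Oxidative phosphorylation couples electron transport in the inner mitochondrial membrane to ATP synthesis. Complex I takes electrons from NADH and complex II from succinate, complex III passes them to cytochrome c, complex IV reduces oxygen with them, and complex V makes ATP from the resulting proton gradient. Complexes I, III, IV and V combine nuclear-encoded subunits with subunits encoded in mitochondrial DNA, while complex II is nuclear-encoded alone. Oocytes carry many mitochondria, and the egg passes its mitochondria to the embryo. Many nuclear genes of the pathway have promoters without a TATA box that bind NRF1 and GABP, and TFIID, the factor that binds core promoters, can hold TAF4b, a subunit enriched in gonads.

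Promoter windows of 4 members are printed, each from 250 bases before to 50 after the RefSeq start (GRCm38.p6, gene strand). They belong to those members with an unadjusted p under 0.05 or with no overlap between genotypes that have a window in the RefSeq table. Chosen in this way, they do not stand for the whole group. Atp5a1 meets the same rule but has no window there. Capitals mark GCGCNTGCG, the core of the NRF1 motif with any base at the fifth position, on either strand. The windows are chr19:4012706-4013005 for Ndufv1, chr17:78936885-78937184 for Ndufaf7, chr13:74350191-74350490 for Sdha and chr9:108936398-108936697 for Uqcrc1. Ndufv1 and Sdha lie on the minus strand, Ndufaf7 and Uqcrc1 on the plus strand.
Ndufv1: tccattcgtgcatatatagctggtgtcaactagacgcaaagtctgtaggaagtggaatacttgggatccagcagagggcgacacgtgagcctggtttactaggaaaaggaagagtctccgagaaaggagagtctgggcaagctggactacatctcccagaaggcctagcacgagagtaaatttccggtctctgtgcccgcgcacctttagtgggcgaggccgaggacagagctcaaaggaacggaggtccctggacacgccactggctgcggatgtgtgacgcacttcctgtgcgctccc
Ndufaf7: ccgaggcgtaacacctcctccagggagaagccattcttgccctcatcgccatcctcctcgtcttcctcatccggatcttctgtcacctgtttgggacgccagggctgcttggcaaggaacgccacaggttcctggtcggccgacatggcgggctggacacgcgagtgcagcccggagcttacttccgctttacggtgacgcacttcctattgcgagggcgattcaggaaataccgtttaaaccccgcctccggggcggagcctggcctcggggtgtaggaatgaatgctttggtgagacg
Sdha: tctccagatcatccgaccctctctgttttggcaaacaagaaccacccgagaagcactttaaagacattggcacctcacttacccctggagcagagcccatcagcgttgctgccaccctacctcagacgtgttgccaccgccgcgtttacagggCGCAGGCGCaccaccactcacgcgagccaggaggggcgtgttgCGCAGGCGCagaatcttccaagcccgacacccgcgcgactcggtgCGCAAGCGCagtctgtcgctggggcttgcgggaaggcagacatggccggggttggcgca
Uqcrc1: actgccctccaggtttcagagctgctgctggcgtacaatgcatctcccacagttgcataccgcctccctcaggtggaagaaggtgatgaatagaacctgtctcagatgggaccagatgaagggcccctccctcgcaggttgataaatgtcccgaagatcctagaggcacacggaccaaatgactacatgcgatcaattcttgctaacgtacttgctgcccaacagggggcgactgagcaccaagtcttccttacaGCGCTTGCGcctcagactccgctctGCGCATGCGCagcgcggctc
Sdha holds the motif at 3 positions and Uqcrc1 at 3, of which the last pair overlap, and the windows of Ndufv1 and Ndufaf7 do not hold these letters.

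A window was found for 77 of the 95 members, by symbol or older symbol, and the first listed window of a gene was used. Of these 77, 24 (31.2%) held GCGCNTGCG on either strand, against 8.95% of 17492 protein-coding windows and 13.1% of the 11423 that belong to genes tested here. The stricter GCGCATGCG, which is one case of the former, stood in 10 (13.0%), against 2.41% and 3.55%. The ETS core of GABP, CCGGAAG, stood in 18 (23.4%), against 11.9% and 17.1%, and the YY1 motif AAGATGGC in 10 (13.0%), against 3.22% and 4.24%. GGGCGG, bound by SP factors, stood in 45.5%, against 46.3% and 62.5%, CCAAT, bound by NFY, in 44.2%, against 39.0% and 38.9%, and TATAAA in 10.4%, against 13.3% and 7.28%. All were searched on both strands. By class, GCGCNTGCG stood in 7 of 15 windows of complex V, 3 of 5 of complex III, 2 of 3 of complex II, 9 of 28 of complex I accessory subunits, 2 of 7 of its assembly factors, 1 of 13 of complex IV, 0 of 5 of complex I core subunits and not in that of Cox7a2l. A match is a description of letters and was not tied to binding here.

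Across the series, total counts ran from 16707216 to 26983565 per library. The 8 germ cell markers summed to between 4238 and 8977 CPM (counts scaled to library size), with Ddx4 between 388 and 875 CPM and Dazl between 1224 and 2734 CPM. Markers of other ovarian cells were low beside these, at 27.7 to 82.2 CPM for 7 pregranulosa genes, 11.9 to 42.4 CPM for 7 stroma genes, 10.8 to 26.5 CPM for 5 surface epithelium genes, 19.0 to 109.8 CPM for 7 endothelial genes and 64.0 to 251 CPM for 8 macrophage genes. Heterozygous 5 stood high for the 9 erythroid genes at a sum of 2085 CPM, as did deficient 5 at 1607 CPM and the library labelled heterozygous 4 at 720.4 CPM, while the rest lay between 65.5 and 224 CPM. No marker was at 0 in all libraries, and edgeR called 0 markers between genotypes, as it called 0 of all 19244 genes tested. The authors' deposited table called 3.36% of genes with an adjusted p there lower in deficient libraries and 3.20% higher. Log2 fold changes, deficient over heterozygous, were positive for 6 of 7 pregranulosa genes (median 0.49, 2 called higher in the authors' deposited table) and for 6 of 7 stroma genes (median 0.51, 1 called higher in the authors' deposited table). They were negative for 8 of 8 macrophage genes (median -0.30, 3 called lower in the authors' deposited table) and for 6 of 7 tested erythroid genes (median -0.41). Negative values were also found for 4 of 5 surface epithelium genes (median -0.51) and 6 of 7 tested germ cell genes (median -0.23, 1 called lower in the authors' deposited table). The endothelial genes had 4 positive and 3 negative values (median 0.18, 1 called higher in the authors' deposited table). The part of these markers in the differences of the members was not tested. Taf4b itself was at 271, 290.2, 142, 65.7 and 101 CPM in heterozygous and 80.7, 81.7, 80.2, 73.7 and 58.2 CPM in deficient libraries. The library labelled heterozygous 4 lay within the deficient range, so its Taf4b count does not bear out its label. Each value given below for that library rests on the label. The log2 fold change of Taf4b was -1.22 ± 0.35 (SE) (edgeR's quasi-likelihood test, Benjamini-Hochberg adjusted p = 0.156). These are counts over the full gene, not over the mutated stretch.

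The members took 2.24% to 3.43% of all counts of a library, with 2.31% to 3.43% in heterozygous and 2.24% to 3.17% in deficient libraries. To compare genes, counts were divided by the length of their merged exons (CPM per kb), a length that counts every annotated exon of the gene. On this scale the median was 203 CPM per kb for the 8 members of complex III, 193 for the 15 tested members of complex IV, 180.3 for the 4 of complex II, 162 for the 30 accessory and 135 for the 7 core subunits of complex I, and 141 for the 17 tested members of complex V. Complex I assembly factors, which build the complex and are not part of it, were lower, with a median of 15.3 CPM per kb over 8 genes.

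The highest level belonged to Ndufa1, a small X-linked accessory subunit of complex I, at 4506 CPM per kb (range over libraries 2870.4 to 5893). Uqcr11, a small subunit of complex III, followed at 1076 CPM per kb (750.0 to 1544), and then Ndufa2 at 735 (555 to 904) and Cox6a1, a subunit of complex IV, at 609.6 (395 to 792). Ndufa1 did not overlap with any of these, while the ranges of the other three overlapped. Of core subunits, Ndufv2 was highest at 386 CPM per kb, and of complex V the peripheral stalk subunit gene Atp5f1 at 475. The lowest tested members were Ndufaf3 at 2.92, Ndufb2 at 4.47 and Ndufaf4 at 5.61 CPM per kb, the first and last of them assembly factors. Some of these low values depend on the length used: Atp5l, a complex V subunit, was at 16.0 CPM per kb of merged exons and at 189 per kb of its longest coding transcript.

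Between genotypes, no member passed the threshold. By edgeR's quasi-likelihood test with Benjamini-Hochberg adjustment over 19244 genes, 0 of 90 members and 0 genes (0%) were called. Log2 fold changes, deficient over heterozygous, were negative for 45 members and positive for 45, with a median of -0.0035 against -0.015 over all genes tested. No member differed by more than 1 on the log2 scale, which 6.87% of all genes did. An unadjusted p under 0.05 was found for 4 members, all lower in deficient libraries (4 of 90, against 9.14% of all genes), and for 0 higher (against 7.46%). Over all genes 3193 had an unadjusted p under 0.05. DESeq2 on the same counts called 1 member and 697 genes, limma voom with quality weights 1 member and 510 genes. Without heterozygous 1 edgeR called 585 genes and 0 members.

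**Figure D1:**
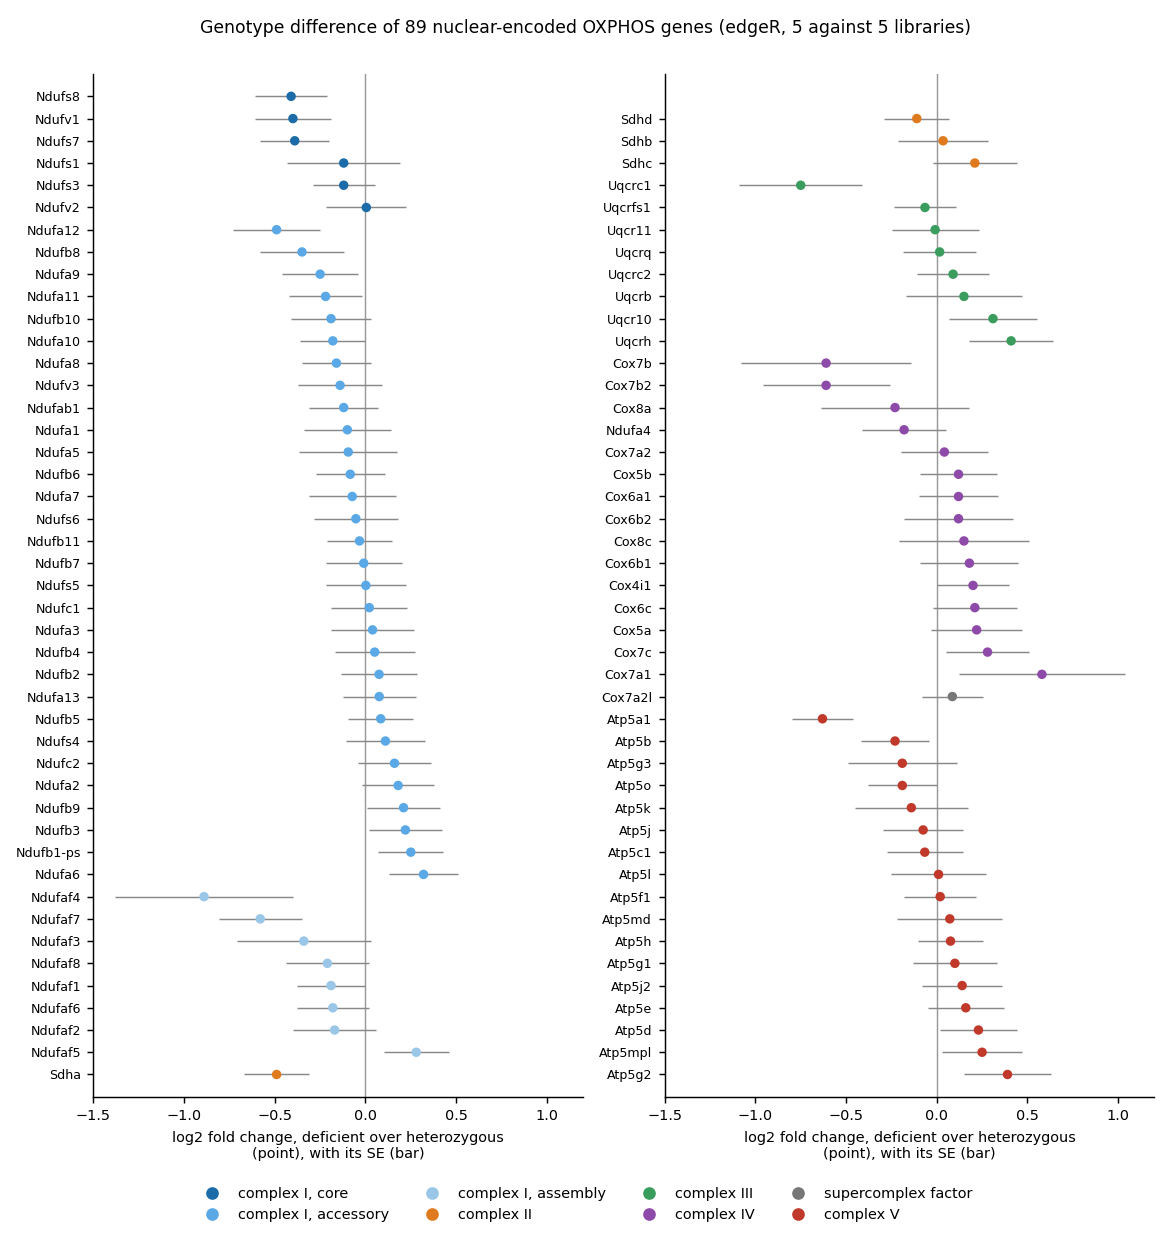
Log2 fold change, deficient over heterozygous (horizontal axis), of 89 of the 90 tested members (rows, coloured by class), with the SE from edgeR as a bar, from 5 libraries per genotype. The values lie on both sides of 0, between -0.89 for Ndufaf4 and 0.58 for Cox7a1, and Atp5a1 stands lowest in complex V.

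Genotypes did not overlap in 2 members, both lower in deficient libraries (2 of 90, against 1.60% of all genes), and in 0 members that were higher (against 1.94%). These are Atp5a1 and Ndufv1. The authors' deposited table called 1 member, lower in deficient libraries, against 3.36% of the 17881 genes with an adjusted p there. DESeq2 and limma voom called the same gene and no other member, against 2.32% and 1.29% of all genes called lower. That gene is Atp5a1. These shares lie near or below the background, so the counts alone do not set the members apart from other genes.

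Atp5a1 (ENSMUSG00000025428, GRCm38 chromosome 18, 77773729 to 77782869, plus strand) encodes the alpha subunit of the catalytic head of ATP synthase, complex V. It was at 541, 617, 661, 769 and 705 CPM in heterozygous libraries and at 429, 388, 446, 416 and 449.8 CPM in deficient libraries, in order of replicate number. Every deficient library lay below every heterozygous library. The log2 fold change was -0.63 ± 0.17 (SE) (edgeR's quasi-likelihood test, Benjamini-Hochberg adjusted p = 0.153). The adjusted p was 0.00527 by DESeq2 and 0.0380 by limma voom with quality weights, both with Benjamini-Hochberg adjustment, and over the alternatives of edgeR and of limma on TPM it ran from 0.0589 to 0.965, the last without the second litter date. In the authors' deposited table its log2 fold change was -0.58 and its adjusted p 0.00531.

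By litter date the difference in Atp5a1 was -0.43, -0.78 and -0.70 on the log2 scale, each from 1 or 2 libraries per genotype. As its genotypes do not overlap, any split of libraries that holds both genotypes must give a negative value. One sign over dates or levels is thus no further support. The fold changes of the authors' deposited table could be rebuilt with a grouping of the libraries into 3 levels, found by a search over groupings, which matches the litter dates in 6 of 10 libraries. Within these levels the difference was -0.41, -0.57 and -0.71, and without the level that holds the libraries with high erythroid genes it was -0.53. Atp5a1 lies on the chromosome that carries Taf4b, 63.0 Mb away from start to start. Its span overlaps a gene on the other strand, and the strand setting of the counting is not given in the sources used here. The beta subunit gene Atp5b, whose product forms the catalytic head with the alpha subunit, was at 1388, 1163, 1063, 1193 and 1156 CPM in heterozygous and 1036, 832, 1084, 1218 and 912 CPM in deficient libraries. Its genotypes overlapped, with a log2 fold change of -0.23 ± 0.19 (SE).

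**Figure D2:**
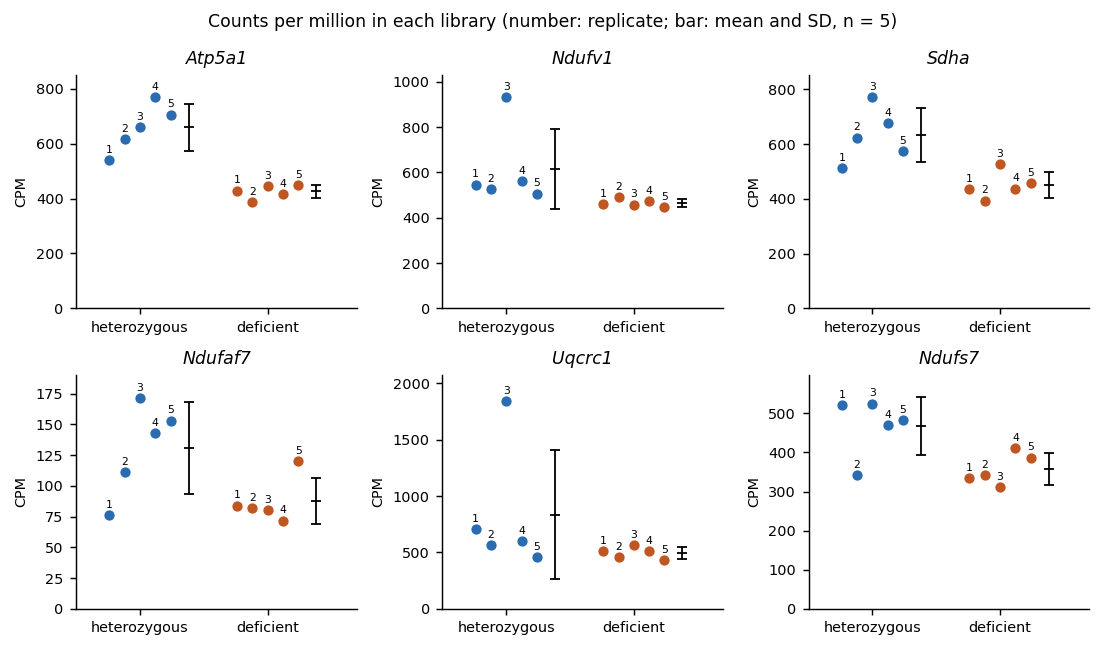
CPM (vertical axis, from 0) of 6 members in each library, heterozygous in blue and deficient in orange, numbered by replicate, with the mean and SD (n = 5) beside them. Atp5a1 and Ndufv1 do not overlap between genotypes, and heterozygous 3 stands far above the other libraries for Ndufv1 (931 CPM) and Uqcrc1 (1842 CPM).

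Of the 17 tested members of complex V, 10 had positive and 7 negative log2 fold changes, with a median of 0.019. Atp5mpl, a small subunit with the highest deposited TPM of the complex, was at 309.7 to 539 CPM in heterozygous and 401 to 605 CPM in deficient libraries, with 0.25 ± 0.22 (SE). Atp5g1, Atp5g2 and Atp5g3 encode the same mature c subunit of the membrane ring behind different import sequences. On the CPM per kb scale Atp5g3 was highest of them at a mean of 201, with Atp5g2 at 103 and Atp5g1 at 44.8. Atp5g2 had the smallest p among positive members of the complex, at 215, 140.1, 74.9, 145 and 169 CPM in heterozygous and 182, 192, 166, 232 and 204 CPM in deficient libraries. These overlap, and the difference was 0.22 without heterozygous 3, the lowest library. With all libraries the log2 fold change was 0.39 ± 0.24 (SE) (edgeR's quasi-likelihood test, Benjamini-Hochberg adjusted p = 0.427).

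The 7 tested core subunits of complex I, which carry its flavin and iron-sulfur clusters, had a median log2 fold change of -0.12, with 6 negative and 1 positive value. Ndufv1 (chromosome 19, 4007384 to 4012806, minus strand), the subunit that binds NADH and FMN, was at 546, 528, 931, 563 and 507 CPM in heterozygous and 462, 489.6, 458, 474 and 446 CPM in deficient libraries. The genotypes did not overlap, but the gap between 507 and 489.6 CPM is small beside the spread of heterozygous libraries. Its log2 fold change was -0.40 ± 0.21 (SE) (edgeR's quasi-likelihood test, Benjamini-Hochberg adjusted p = 0.343), and -0.21 without heterozygous 3.

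Ndufs7, a core subunit with an iron-sulfur cluster near the quinone site, had the smallest p of the core list, 0.0559. It was at 521, 341, 525, 469 and 483 CPM in heterozygous and 334, 342, 311, 412 and 387 CPM in deficient libraries, so heterozygous 2 lay among the deficient libraries and the others above them. The log2 fold change was -0.39 ± 0.19 (SE), and -0.24 without the second litter date. Ndufs8, another iron-sulfur subunit, had -0.41 ± 0.20 (SE). Ndufv2 was the single core member with a positive value, 0.0046 ± 0.22 (SE), and its sign turned in 5 of 10 fits without 1 library and in 11 of 18 other alternatives. Ndufs1, the largest core subunit, was at 263 and 246 CPM in the library labelled heterozygous 4 and heterozygous 5 and at 247 CPM in deficient 5, and at 369 to 702 CPM elsewhere. Those 3 libraries are the ones with high erythroid genes, and their part in this value was not tested.

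Among the 30 accessory subunits of complex I, 14 log2 fold changes were positive and 16 negative, with a median of -0.021. Ndufa12, a late-added subunit of the arm that holds the NADH site, had the smallest p among negative values, 0.0639. It was at 209, 116, 319, 207 and 196 CPM in heterozygous and 134, 156, 116, 153 and 185 CPM in deficient libraries. Its log2 fold change was -0.49 ± 0.24 (SE), with -0.30 without heterozygous 3 and -0.13 without the second litter date. Ndufa6 had the smallest p among positive values, 0.122, at 519, 344, 353, 376 and 462 CPM in heterozygous and 483, 541, 414, 595 and 527 CPM in deficient libraries. Both overlap between genotypes. Ndufa1, the most abundant member per kb, had a log2 fold change of -0.10 ± 0.24 (SE). Ndufb9, which has the highest deposited TPM of the accessory subunits, was at 373, 219, 308, 251 and 277 CPM in heterozygous and 291, 330.3, 278, 414 and 343 CPM in deficient libraries. These overlap, with 0.21 ± 0.20 (SE).

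The 8 assembly factors of complex I had a median of -0.20, with 7 negative values and 1 positive. Ndufaf7, a methyltransferase that acts in complex I assembly, was at 76.2, 111, 171, 143 and 153 CPM in heterozygous and 83.8, 81.6, 79.9, 71.7 and 120.0 CPM in deficient libraries. Heterozygous 1 lay among the deficient libraries and deficient 5 above heterozygous 1 and 2. The log2 fold change was -0.58 ± 0.23 (SE) (edgeR's quasi-likelihood test, Benjamini-Hochberg adjusted p = 0.242). Without the second litter date it was -0.30.

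Ndufaf4 had the lowest log2 fold change of all members, -0.89 ± 0.49 (SE). The library labelled heterozygous 4 was at 34.4 CPM, heterozygous 5 at 67.6 CPM and deficient 5 at 29.8 CPM, and these are the libraries with high erythroid genes. The other 3 heterozygous libraries lay between 11.2 and 17.0 CPM and the other 4 deficient ones between 10.2 and 12.8 CPM, which overlap. The part of the erythroid genes was not tested. Ndufaf5 was the member with a positive value, at 0.28 ± 0.18 (SE). Ndufaf1, which has the highest deposited TPM of the assembly factors, reached 244 CPM in heterozygous 3, with 146 to 157 CPM in the remaining heterozygous and 134 to 171 CPM in deficient libraries. This gave a log2 fold change of -0.19 ± 0.19 (SE).

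Complex II has 4 subunits and gave a median of -0.04, with 2 positive and 2 negative values. Sdha (chromosome 13, 74322254 to 74350280, minus strand), the flavoprotein that oxidizes succinate, was at 513, 624, 772, 676 and 575 CPM in heterozygous and 436, 394, 527, 438 and 459 CPM in deficient libraries. Only deficient 3 reached into the heterozygous range, above heterozygous 1. The log2 fold change was -0.49 ± 0.18 (SE) (edgeR's quasi-likelihood test, Benjamini-Hochberg adjusted p = 0.221). By litter date the difference was -0.37, -0.66 and -0.36, and by level of the grouping -0.31, -0.53 and -0.44.

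Sdhb, the iron-sulfur subunit that joins Sdha's product in the matrix arm, differed in its pattern. It was at 691, 511, 926, 407 and 408 CPM in heterozygous and 543, 611, 585, 743 and 533 CPM in deficient libraries, with a log2 fold change of 0.035 ± 0.25 (SE). Sdhc, a membrane anchor, was at 289, 209, 297, 160.3 and 142 CPM in heterozygous and 249, 246, 273, 300.0 and 200.1 CPM in deficient libraries, with 0.21 ± 0.23 (SE). That value was 0.088 without heterozygous 5, 0.12 without the library labelled heterozygous 4, 0.33 without heterozygous 1 and 0.34 without heterozygous 3. In both, the library labelled heterozygous 4 and heterozygous 5 were the lowest of all libraries, and in Sdha they lay above every deficient library. Sdhd, the other anchor and the subunit with the highest deposited TPM, was at 237 to 369 CPM in heterozygous and 245 to 309.7 CPM in deficient libraries, with -0.11 ± 0.18 (SE).

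The 8 members of complex III had a median of 0.053, with 5 positive and 3 negative values. Uqcrc1 (chromosome 9, 108936633 to 108949623, plus strand), the core 1 subunit, was at 709.8, 565, 1842, 597 and 457 CPM in heterozygous and 508, 461, 567, 509 and 429 CPM in deficient libraries. Heterozygous 3 stood above every other library, and the remaining values overlap. Its log2 fold change was -0.75 ± 0.34 (SE) (edgeR's quasi-likelihood test, Benjamini-Hochberg adjusted p = 0.291), and -0.24 without heterozygous 3. Uqcrh, the hinge subunit that contacts cytochrome c1, had the smallest p among positive values, 0.0973. It was at 351, 200.2, 169, 220.3 and 306 CPM in heterozygous and 329.8, 359, 255, 409 and 306 CPM in deficient libraries, which overlap.

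The 15 tested members of complex IV, with Ndufa4 counted here because its product is a subunit of cytochrome c oxidase, had a median of 0.12, with 11 positive and 4 negative values. Without heterozygous 3 this median was -0.0022. Cox4i1, the widely expressed form of a subunit that binds ATP, was at 829, 515, 593, 644 and 777 CPM in heterozygous and 745, 801, 629, 915 and 754 CPM in deficient libraries, with 0.20 ± 0.20 (SE). Cox7b, an X-linked subunit, was at 28.4, 31.2, 17.6, 74.8 and 123 CPM in heterozygous and 30.2, 32.1, 21.1, 31.5 and 65.6 CPM in deficient libraries. As with Ndufaf4, the values stand high in the library labelled heterozygous 4, heterozygous 5 and deficient 5. Its log2 fold change was -0.61 ± 0.47 (SE). Cox7c, which has the highest deposited TPM of the complex, was at 332 to 679 CPM in heterozygous and 430.0 to 745 CPM in deficient libraries, with 0.28 ± 0.23 (SE). Cox7a2l, whose product helps join complexes III and IV into supercomplexes, had 0.086 ± 0.17 (SE).

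Complex IV has several subunits with a second gene whose product is known from certain tissues. Cox7a1 is known from heart and skeletal muscle, and Cox6b2, Cox7b2 and Cox8c from testis. All 4 had counts in every library, with mean levels of 30.7, 20.0, 15.6 and 23.0 CPM per kb. Their widely expressed partners were higher, Cox7a2 at 349, Cox6b1 at 228, Cox7b at 37.5 and Cox8a at 80.5 CPM per kb. Another 4 genes of this kind were not tested because of low counts: Cox4i2 had 56 counts over all 10 libraries, of which heterozygous 1 held 22, Ndufa4l2 had 29, Cox6a2 12 and Cox8b 3. The second identifier of Atp5o had 0, a gene model that overlaps the first, which averaged 117 CPM (SD 23.4, n = 5) over heterozygous and 103 CPM (SD 14.9, n = 5) over deficient libraries.

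**Figure D3:**
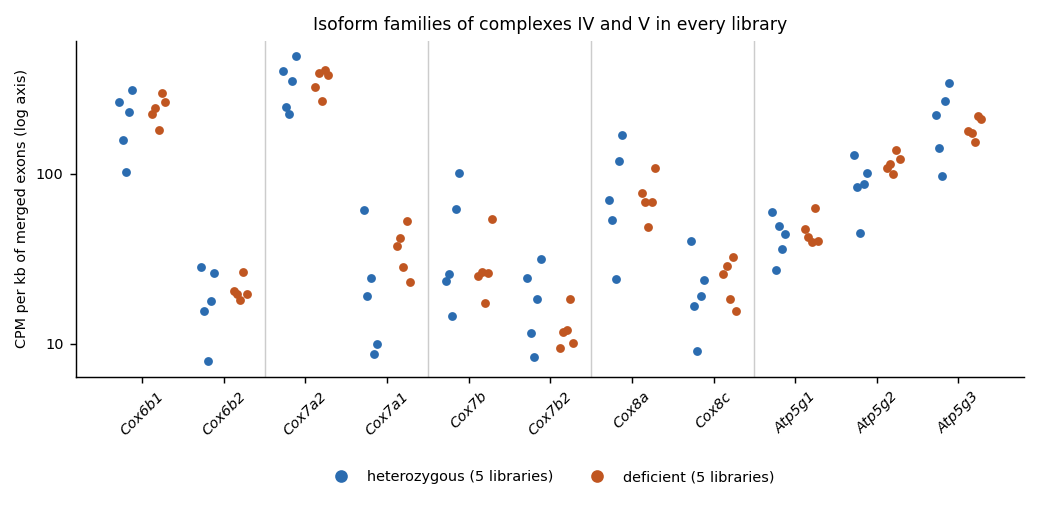
CPM per kb of merged exons (vertical log axis) of isoform families of complexes IV and V, one point per library, heterozygous in blue and deficient in orange. Cox6b2, Cox7a1, Cox7b2 and Cox8c lie below their partners Cox6b1, Cox7a2, Cox7b and Cox8a on average, and all were detected in every library.

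The share of an isoform in the sum with its partner, both per kb, varied more between libraries than between genotypes. For Cox6b2 it was 8.14 ± 1.15% (SD, n = 5) in heterozygous and 7.98 ± 0.841% (SD, n = 5) in deficient libraries. For Cox7a1 it was 13.1, 7.13, 9.82, 2.41 and 1.99% in heterozygous and 10.4, 9.70, 9.57, 11.5 and 5.69% in deficient libraries. The library labelled heterozygous 4, heterozygous 5 and deficient 5 held the lowest shares. For Cox8c with Cox8a these same libraries were at 13.8, 12.4 and 12.5%, and the others at 23.7 to 36.6%. For Cox7b2 with Cox7b they were at 23.0, 23.8 and 15.7%, and the others at 27.5 to 51.1%. These shares were not tested, and the erythroid markers given above stand high in the same libraries. In bulk libraries fewer cells of a type and less RNA per cell cannot be told apart.

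Cox7a1 had the highest log2 fold change of all members, 0.58 ± 0.46 (SE) (edgeR's quasi-likelihood test, Benjamini-Hochberg adjusted p = 0.552). It was at 32.6, 10.2, 13.1, 4.64 and 5.36 CPM in heterozygous and 20.1, 22.4, 15.1, 28.3 and 12.3 CPM in deficient libraries. Heterozygous 1 was the highest and the library labelled heterozygous 4 the lowest, so the heterozygous libraries enclose the deficient ones. Over the libraries left out one at a time its log2 fold change ran from 0.37 to 1.24, the last without heterozygous 1 and the first without the library labelled heterozygous 4. Cox7b2 had the smallest p among negative values of complex IV, 0.106. It was at 13.2, 6.28, 4.50, 9.98 and 17.1 CPM in heterozygous and 5.11, 6.38, 6.56, 9.97 and 5.45 CPM in deficient libraries, which lie within the heterozygous range. Its log2 fold change was -0.61 ± 0.35 (SE), and -0.34 without heterozygous 5.

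Members varied more among heterozygous than among deficient libraries. The SD of log2 CPM was larger in heterozygous libraries for 84 of 90 members (93.3%), with medians of 0.39 and 0.22, and for 76.3% of all genes, with medians of 0.54 and 0.37. The highest library of a member was heterozygous 5 for 31, heterozygous 3 for 20, deficient 4 for 20 and heterozygous 1 for 16 members, and the lowest was heterozygous 2 for 35 and heterozygous 3 for 24. Heterozygous 3 was therefore often at one end, high for some members and low for others.

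**Figure D4:**
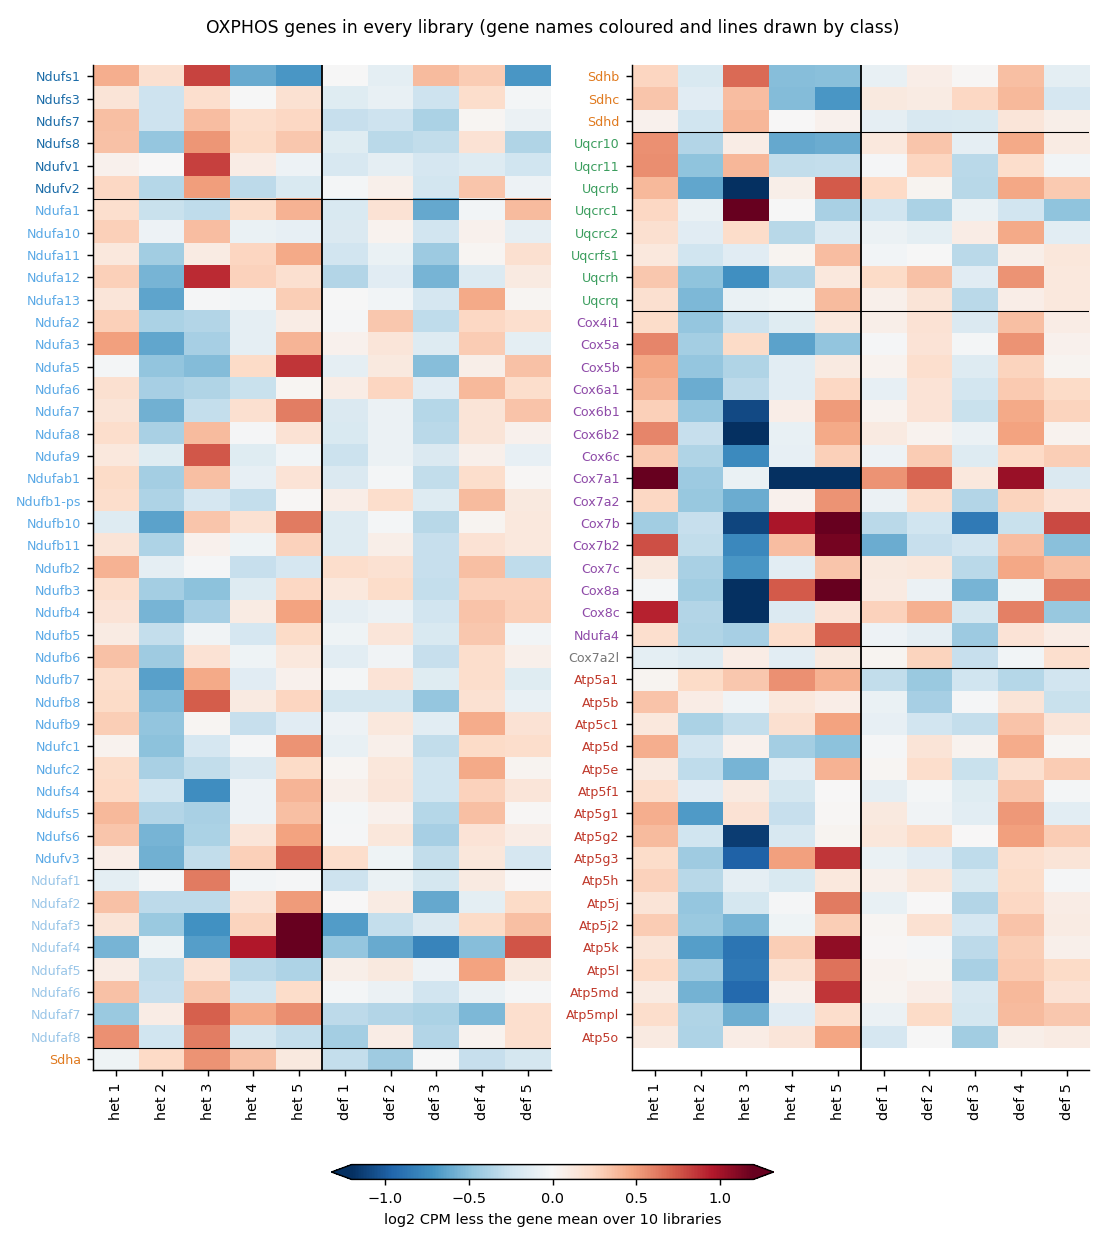
Log2 CPM less the mean over 10 libraries (colour) of 89 of the 90 tested members (rows, ordered by class) in each library (columns, heterozygous left of the line). Heterozygous 2 is the lowest library for 35 members, and heterozygous 3 is high for Ndufs1, Ndufv1, Sdhb and Uqcrc1 and low for Uqcrb, Cox8a and Atp5md.

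The level of a class in a library was taken as the median, over its members, of log2 CPM centred on the gene's own mean. In heterozygous 3 it was 0.53 for complex I core, 0.47 for complex II, 0.24 for assembly factors, -0.12 for accessory subunits, 0.007 for complex III, -0.70 for complex IV and -0.29 for complex V. The classes thus lay apart by more than 1 in that library. In heterozygous 1 all 7 classes lay between 0.12 and 0.31, in heterozygous 2 between -0.42 and -0.16, and in deficient 3 between -0.29 and 0.0045. Deficient 4 lay between -0.012 for assembly factors and 0.37 for complex IV.

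The 83 cytosolic ribosomal protein genes, also short and abundant transcripts, were at -1.28 in heterozygous 3 and between -0.29 and 0.44 elsewhere. The 13 mRNAs of the mitochondrial genome, which encode the other subunits of complexes I, III, IV and V, were at -1.42 there and between -0.61 and 0.79 elsewhere. They took 0.669% of the counts of heterozygous 3, against 1.14% to 2.46% of the other libraries. Per count of the nuclear members there were 0.266 mitochondrial mRNA counts in heterozygous 3 and 0.509 to 0.772 elsewhere. Their log2 fold changes had a median of 0.065, 7 positive and 6 negative, and 0 of 13 were called. Near-identical nuclear copies of parts of mitochondrial DNA exist, and the handling of reads with several matches is not given in the sources used here, which leaves levels of single mitochondrial genes uncertain.

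**Figure D5:**
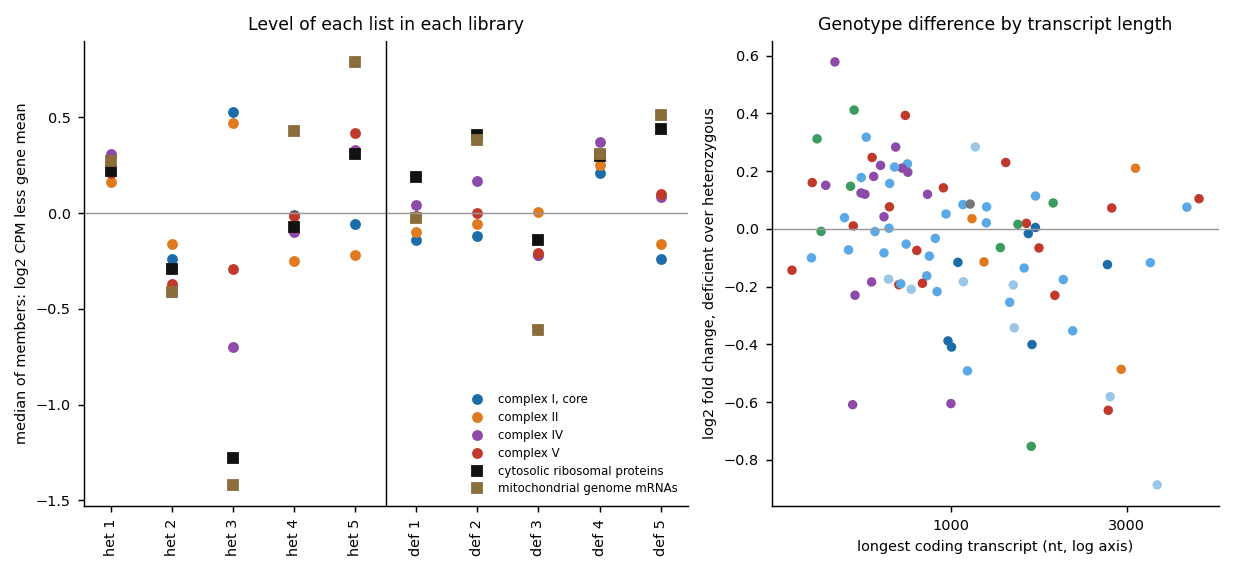
Left, level of 4 classes (circles) and 2 other lists (squares) in each library, as the median of log2 CPM less gene mean. In heterozygous 3 complex I core and complex II stand at 0.53 and 0.47, and ribosomal protein genes and mitochondrial mRNAs at -1.28 and -1.42. Right, log2 fold change of 89 members against the length of the longest coding transcript (log axis), coloured by class.

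The members' log2 fold changes went down with transcript length. Over 89 members with an annotated coding transcript, Spearman's rho between length and log2 fold change was -0.35, against 0.21 over 14453 protein-coding genes tested. These are correlations across genes of the same libraries, which are not independent, and no p is given. The 49 members under 1000 nt had a median of 0.042 and the 40 longer ones -0.12. Over all protein-coding genes tested these medians were -0.023 for 802 short and -0.069 for 13651 longer genes. In heterozygous 3 the shorter members were at a level of -0.36 and the longer ones at 0.21. Over all protein-coding genes these levels were -0.28 and 0.031 there, and -0.32 and 0.081 in heterozygous 2. Low short transcripts were thus not particular to the members. Without heterozygous 3 the members' medians were -0.053 and -0.055 and rho -0.12. The relation among members thus rests largely on heterozygous 3. Among the long members are Atp5a1, Sdha, Uqcrc1 and Ndufaf7, and leaving out heterozygous 3 moved Atp5a1 from -0.63 to -0.64, Sdha from -0.49 to -0.41, Ndufaf7 from -0.58 to -0.48 and Uqcrc1 from -0.75 to -0.24.

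The direction of the whole group depended on which libraries were compared. By litter date, the median difference of members was 0.02, -0.016 and -0.09 on the log2 scale. Within the levels of the grouping it was -0.24 in the first (heterozygous 1 against deficient 1 and 2), 0.28 in the second (heterozygous 2 and 3 against deficient 3 and 4) and -0.036 in the third (the library labelled heterozygous 4 and heterozygous 5 against deficient 5). For complex IV the values by level were -0.28, 0.60 and -0.027, and for complex V -0.21, 0.39 and -0.19. Complex I core was negative in each level, at -0.40, -0.10 and -0.11, and in each litter date, at -0.18, -0.26 and -0.10. Its assembly factors were too, at -0.17, -0.23 and -0.065 by level and -0.15, -0.27 and -0.36 by litter date. Each of these rests on 1 or 2 libraries per genotype.

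Other genes of the pathway did not pass the test either. Of 47 tested oxidative phosphorylation genes outside the name rule, mainly assembly factors and cytochrome c, 0 were called, 34 values were negative and 13 positive, and the median was -0.19. Among them 3 had an unadjusted p under 0.05, all lower in deficient libraries (against 9.14% of all genes). Cycs, the somatic cytochrome c, averaged 162 CPM (SD 29.4, n = 5) over heterozygous and 124 CPM (SD 18.7, n = 5) over deficient libraries. Cyc1, the cytochrome c1 of complex III, was at 856 CPM in heterozygous 3 and 349 to 557 CPM elsewhere, and Uqcrc1 was also highest in heterozygous 3. Of 23 regulators of mitochondrial biogenesis, 0 were called, with a median of 0.0026. Among them 2 had an unadjusted p under 0.05, both lower in deficient libraries (against 9.14% of all genes). These were Gabpb1, at -0.52 ± 0.19 (SE), and Tfb2m, at -0.48 ± 0.21 (SE). Nrf1 was at 176 CPM in heterozygous 3 and 87.6 to 110.5 CPM elsewhere, Gabpa had a log2 fold change of 0.03 ± 0.21 (SE), and Ppargc1a was at most 1.99 CPM.

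The lists of the tricarboxylic acid cycle and pyruvate entry, of glycolysis and of mitochondrial import and cristae had more negative than positive values. The 23 regulators of mitochondrial biogenesis had 12 positive and 11 negative values, and the 13 mitochondrial mRNAs 7 positive and 6 negative. Over all genes tested 51.1% of values were negative. Of 26 genes of the tricarboxylic acid cycle and pyruvate entry, edgeR called 0, 18 were negative and 8 positive, and the median was -0.14, against -0.0035 for the members. An unadjusted p under 0.05 was found for 6 of them, all lower in deficient libraries (against 9.14% of all genes). Genotypes did not overlap in 1, Pdhx, lower in deficient libraries (against 1.60%). The authors' deposited table called 2 lower, Dld (adjusted p 0.0437) and Pdha2 (adjusted p 0.00280), against 3.36% of genes with an adjusted p there. The level of the 26 genes was -0.0083 to 0.35 in heterozygous and -0.22 to 0.034 in deficient libraries, which overlap. Of 20 tested glycolysis genes, edgeR called 0, 17 were negative and 3 positive, and the median was -0.27. Here 5 had an unadjusted p under 0.05, all lower, and 1 of these 5 had no overlap between genotypes. That entry was 1 of 2 Aldoa identifiers counted among the 20. Its level was low, with group means of 0.905 (heterozygous) and 0.383 (deficient) CPM. The other Aldoa identifier, with means of 88.2 and 86.9 CPM in the same order, overlapped and had a log2 fold change of -0.021. The authors' deposited table called 2 glycolysis genes lower, Pkm (adjusted p 0.0131) and Pfkp (adjusted p 0.0293). Of 34 genes of mitochondrial import and cristae, 0 were called, 26 were negative and 8 positive, and the median was -0.13. Among them 4 lower and 1 higher had an unadjusted p under 0.05, against 9.14% and 7.46% of all genes. The ribosomal protein genes had 76 of 83 positive values and a median of 0.37, with 0 called by edgeR. An unadjusted p under 0.05 was found for 7 higher (against 7.46% of all genes) and 1 lower (against 9.14%). The authors' deposited table called 3 higher, Rpl12, Rpl30 and Rps4x, against 3.20% of all genes with an adjusted p there. Differences between these lists were not tested.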

How the data were processed

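RNA-seq of 10 libraries of sorted E16.5 oocytes was used. Per the submitters' processing notes, reads were processed with Trim Galore 0.5.0, FastQC 0.11.5, HISAT2 2.1.0, SAMtools 1.9, StringTie 1.3.3b, featureCounts of Subread 1.6.2 and DESeq2 on GRCm38. Strand and multiple-match settings of featureCounts: not given in the sources used here. The authors deposited raw counts per gene, TPM per gene and a table of their own comparison with log2 fold changes, p-values, a test score and the mean normalized count, which is a signal per gene. Genes without a symbol, 382 in all, held 0.0632% to 0.0945% of the counts and were kept.

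Deposited counts were tested with edgeR 4.0.16 (R 4.3.3; TMM scaling, filterByExpr, robust quasi-likelihood fit, both genotypes, no covariate), with Benjamini-Hochberg adjustment over 19244 genes and a threshold of 0.05. SEs are the log2 fold change divided by the root of F. CPM used TMM library sizes, log2 CPM a prior count of 2, and CPM per kb the merged exons of GENCODE M21. Alternatives used DESeq2 1.42.0, limma 3.58.1 (voom with quality weights, or log2(TPM + 1) and log2(TPM + 0.1) with a mean TPM of at least 0.5), other scalings and filters, a date or replicate block, and left-out libraries, dates or levels. Scripts were tested on simulated data.

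Genes named by rule were, per class, those with the smallest p in each direction and the highest TPM, members with no overlap or called in the authors' deposited table, and tissue-restricted isoforms with their partners. Others that are named were chosen after their values were seen. The members and lists were chosen with earlier results of these data known. Only this naming rule ranks genes by TPM, and levels are compared in CPM per kb, because TPM over CPM per kb was 0.118 to 0.146 for 21 members under 1000 nt of merged exons and 1.14 to 1.37 for the 49 longest members. Replicate numbers were not used to pair libraries, since the labels do not tie them to a shared source. Numbers 2 and 4 carry different litter dates in the 2 genotypes. 1 tested member counted in the totals is not reported here by name.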

Additional observations from a re-analysis of the deposited data

Results flagged for a closer look

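In groups of 5 libraries, 7 of 76 values tested had one library far from the others, its gap to the nearest being over 0.71 of the range. Chance gives such a gap in about 1 in 20 groups. Heterozygous 3 stood apart for Uqcrc1 at 1842 CPM (others 457 to 709.8), for Ndufv1 at 931 CPM (others 507 to 563) and for Ndufaf1 at 244 CPM (others 146 to 157). Deficient 5 stood apart for Ndufaf7 at 120.0 CPM (others 71.7 to 83.8) and for Cox7b at 65.6 CPM (others 21.1 to 32.1). Deficient 4 stood apart for Cox6b2 at 29.4 CPM (others 20.0 to 22.6) and for the level of complex I core subunits at 0.21 (others -0.24 to -0.12).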

How the results depend on the processing

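The numbers of genes and members called, Taf4b, the medians of members and classes, and the members named for the smallest p or for lack of overlap were recomputed under 28 alternatives, 4 of them chosen after seeing the data (the rebuilt grouping as a term, and leaving out each of its levels). The length relation was repeated without heterozygous 3 only, and levels, spreads, isoform shares, other lists, motifs and other named genes were not repeated. Against 0 genes, DESeq2 called 697, limma voom 510, no filter on low counts 61, the rebuilt grouping as a term 118 and fits without 1 library 0 to 585 (585 without heterozygous 1, 1 without heterozygous 2). Against 0 members, DESeq2 and limma voom each called 1, Atp5a1, and fits without 1 library 0 to 0. With the replicate block 1 gene and 0 members were called. Same-numbered libraries correlated at 0.169, 0.035, 0.118, -0.262 and 0.593, and 1 of 5 numbers correlated best with its own. With 5 numbers these values cannot decide whether the libraries are paired. Taf4b passed with DESeq2 (-1.22, adjusted p 0.0308) and with the grouping (-1.28, adjusted p 0.0354), and ran from -1.42 to -0.95 without 1 library. It was -0.81 with litter date as a term, -0.48 without litter date 1 and -1.63 without litter date 2.

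Median log2 fold changes without 1 library ran from -0.10 to 0.082 for members, -0.28 to -0.089 for complex I core, -0.13 to 0.087 for accessory subunits, -0.28 to -0.16 for assembly factors, -0.11 to 0.11 for complex II, -0.041 to 0.15 for III, -0.0022 to 0.28 for IV and -0.10 to 0.12 for V. Over the other alternatives they ran from -0.14 to 0.091 for members, -0.34 to -0.045 for core, -0.15 to 0.12 for accessory subunits, -0.29 to -0.12 for assembly factors, -0.19 to 0.13 for II, -0.048 to 0.19 for III, -0.14 to 0.30 for IV and -0.27 to 0.13 for V, with the lowest values of IV and V without level 2. Core and assembly medians were negative in all 28 alternatives. Ndufv2 turned negative with DESeq2 and RLE scaling (-0.014 each), the grouping (-0.039), the TPM fits (-0.078 each), litter date as a term (-0.0093), no filter (-0.02), upper-quartile scaling (-0.005), without level 3 (-0.13) and without litter date 3 (-0.14), and ran from -0.082 to 0.15 without 1 library. Cox7a2l turned negative in the TPM fits (-0.033 each) and without level 1 (-0.00098). The cause was not tested. With 5 libraries per genotype and SEs of 0.17 to 0.49 on the log2 scale, small differences in members were not detectable.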

Other observations

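Pyruvate dehydrogenase, which feeds the respiratory chain through the tricarboxylic acid cycle, has an X-linked E1 alpha gene, Pdha1, and an autosomal copy known from testis, Pdha2. Pdha1 was at 45.9, 30.4, 40.0, 18.5 and 10.3 CPM in heterozygous and 38.9, 31.1, 41.5, 46.8 and 18.6 CPM in deficient libraries. Pdha2 was at 6.61, 6.32, 7.39, 18.7 and 20.1 CPM in heterozygous and 4.97, 4.29, 3.30, 3.34 and 10.4 CPM in deficient libraries. Pdha2 counts exceeded those of Pdha1 in heterozygous 5 and in the library labelled heterozygous 4 (18.7 against 18.5 CPM), and in deficient 5 it was at 10.4 against 18.6 CPM. Pdha1 was lowest in these 3 libraries. The log2 fold change of Pdha2 was -1.16 ± 0.43 (SE), and the Benjamini-Hochberg adjusted p = 0.217 (edgeR's quasi-likelihood test); in the authors' deposited table its adjusted p was 0.00280. These genes were chosen after their values were seen. Erythroid markers were high in the same libraries, and their part in these values was not tested.

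Cyct, the cytochrome c known from testis, was at 16.6 to 61.6 CPM in heterozygous and 31.2 to 60.7 CPM in deficient libraries, below Cycs in every library.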
